A study of Mus musculus with 6 samples.

Results

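Genes of B cells and plasma cells, namely Ighm, Jchain, Mzb1, Cd79a, Cd79b and Ms4a1, were followed in mouse hearts. They were chosen by their measured differences between the groups described here. Every probe set annotated to exactly 1 of the 6 symbols was taken, which gave 17 of the 45037 probe sets that are no array controls: 11 for Ighm, 2 for Ms4a1 and 1 for each other gene. All heart tissue came from male mice labelled C57BL/6J, on 6 arrays. A FASN-high line (high cardiac fatty acid synthase) and a FASN-low line gave 2 arrays each, and 2 further arrays came from age-matched B6 controls, for which no transgene is stated. In both lines the alpha-MHC promoter, a driver of expression in cardiac muscle, controls the FASN transgene. There is 1 line for each FASN level, ages are not given, and the tissue label calls all 6 samples transgenic, so groups follow the sample titles. Whether 2 arrays of a group are 2 hearts is not stated, so p-values measure the spread between arrays, which may be technical.

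B cells recognise antigen through a membrane immunoglobulin that signals through the paired chains CD79A and CD79B, and carry CD20, the product of Ms4a1, at their surface. After activation some become plasma cells, which secrete antibody. Secreted IgM, whose heavy chain is encoded by Ighm, is joined into polymers by the J chain (Jchain), and MZB1 helps the endoplasmic reticulum to fold and assemble it. The healthy heart muscle holds few such cells, so their transcripts are a small part of its RNA.

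Signals are linear intensities in arbitrary units, as deposited. Differences are given on the log2(signal + 16) scale, which understates changes of dim probe sets. A probe set was tested when its mean log2 value over the 6 arrays reached the median of all probe sets, which corresponds to a signal of 47.0. Below that it is called dim here, and only its values are given. The signal of the median probe set lay between 48.3 and 51.9 on the 6 arrays. The transgene's gene, Fasn, read 213 and 187 in controls, 462 and 481 in the FASN-low line, and 2268 and 2104 in the FASN-high line, and the heart muscle myosin gene Myh6 read between 27487 and 38169 on all arrays. Arrays of one group correlated at 0.987 to 0.990 over the 22519 tested probe sets, and arrays of different groups at 0.969 to 0.977.

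The 6 genes were chosen with results of these comparisons known, so their own differences are descriptions and carry no p. Of the 17 probe sets, 7 reached the filter and 10 did not. Ighm 1427351_s_at, Jchain and Ms4a1 1423226_at averaged below the filter signal in controls (45.0, 46.7 and 27.2) and reached it through the transgenic arrays.

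Ighm gave the widest spread between groups. Its brightest probe set, 1427351_s_at, read 1711 and 1729 in the FASN-low line, 333 and 310.2 in the FASN-high line, and 9.91 and 80.0 in controls. Neither line overlapped the controls or the other line, and the control arrays differed more from each other than the arrays of either line did. The log2 difference from control was 5.12 ± 0.449 (SE) in the FASN-low line and 2.76 ± 0.449 in the FASN-high line. The first was the largest rise of any tested probe set in that comparison. Leaving out one control array moved it between 4.18 and 6.07, and the FASN-high difference between 1.81 and 3.70, as the control level rests on 9.91 and 80.0. The second probe set, 1427329_a_at, read 601 and 571 in the FASN-low line, 155 and 162 in the FASN-high line, and 80.4 and 62.3 in controls. It kept the same order without overlap, with log2 differences of 2.79 ± 0.151 and 1.01 ± 0.151. The low line exceeded the FASN-high line 5.15-fold on the first probe set and 3.44-fold on the second.

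The other 9 probe sets of Ighm did not show this order. 1425385_a_at was highest in controls, at 195 and 213, against 106 and 111 in the FASN-low line and 88.2 and 75.8 in the FASN-high line. Its groups did not overlap, and it was 1.77-fold lower in the FASN-low line and 2.25-fold lower in the FASN-high line than in controls. 1427870_x_at read 134 on both control arrays, 124 and 103 in the FASN-low line and 97.2 and 74.6 in the FASN-high line. Its log2 differences were -0.22 ± 0.195 and -0.56 ± 0.195. Thus of 4 tested Ighm probe sets 2 stood above and 2 below controls in both lines. The remaining 7 were dim, with array values between 1.13 and 62.3. Among them 1451949_at read 17.0 and 28.2 in the FASN-high line, 3.05 and 2.81 in the FASN-low line and 5.01 and 5.40 in controls. All its values were below the array medians. In the array maker's naming, a suffix s marks probes shared by several genes, a marks probes shared by transcripts of one gene and x marks probes that may read unrelated sequences. Immunoglobulin genes are a multigene family, so which transcript each Ighm probe set read is uncertain.

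**Figure D1:**
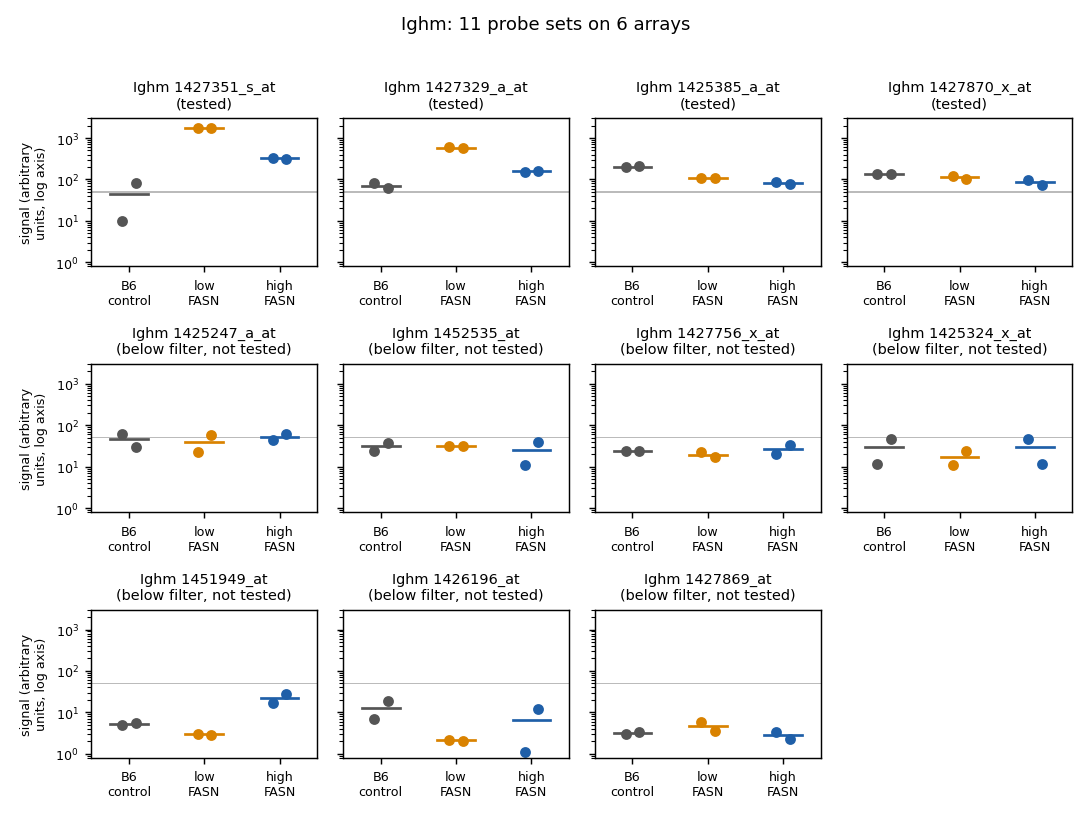
Signal of the 11 Ighm probe sets (log axis, arbitrary units) on each array, with points for arrays, bars for the mean of the 2 arrays of a group and a grey band for the range of the array medians, 48.3 to 51.9. The 2 brightest probe sets run low line, high line, control from top to bottom, 1425385_a_at and 1427870_x_at run control, low line, high line, and 7 lie near or under the grey band.

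Jchain followed the bright Ighm probe sets. It read 423 and 441 in the FASN-low line, 93.7 and 132.5 in the FASN-high line and 43.7 and 49.8 in controls. The 3 groups were separate, and both control values lay under the median of their array. The log2 difference from control was 2.84 ± 0.189 in the FASN-low line (7.15-fold) and 1.03 ± 0.189 in the FASN-high line (2.04-fold), and the lines differed 3.51-fold. Only 1 probe set reads Jchain, so there is no second one to set beside it.

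Mzb1 was less clear. It read 105 and 113 in the FASN-low line, 33.6 and 76.9 in the FASN-high line and 68.2 and 57.8 in controls. The low line stood above both other groups, while the FASN-high line spanned the control values. The log2 differences were 0.67 ± 0.295 in the FASN-low line and -0.22 ± 0.295 in the FASN-high line, and the latter became 0.24 without FASN-high array 1.

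Among the B cell surface genes, Ms4a1 was higher in both lines on both of its probe sets. 1423226_at read 94.9 and 105 in the FASN-low line, 68.1 and 73.6 in the FASN-high line and 24.1 and 30.3 in controls. The groups did not overlap, and the differences were 1.43 ± 0.226 and 1.01 ± 0.226 on the log2 scale. The dim 1450912_at kept that order, at 36.1 and 25.3, 21.7 and 18.1, and 7.73 and 11.3.

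The chains of the antigen receptor differed from each other. Cd79b, which passes the signal inward together with Cd79a, read 90.2 and 63.0 in the FASN-low line, 51.3 and 36.7 in the FASN-high line and 5.58 and 5.69 in controls. The groups were separate, but the mean missed the filter, so Cd79b was not tested. Cd79a was under the median on every array, at 8.96 and 1.74 in the FASN-low line, 29.0 and 10.3 in the FASN-high line and 6.93 and 12.4 in controls. Both lines overlapped the controls, and the FASN-high arrays lay above the FASN-low arrays, all below the array medians.

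**Figure D2:**
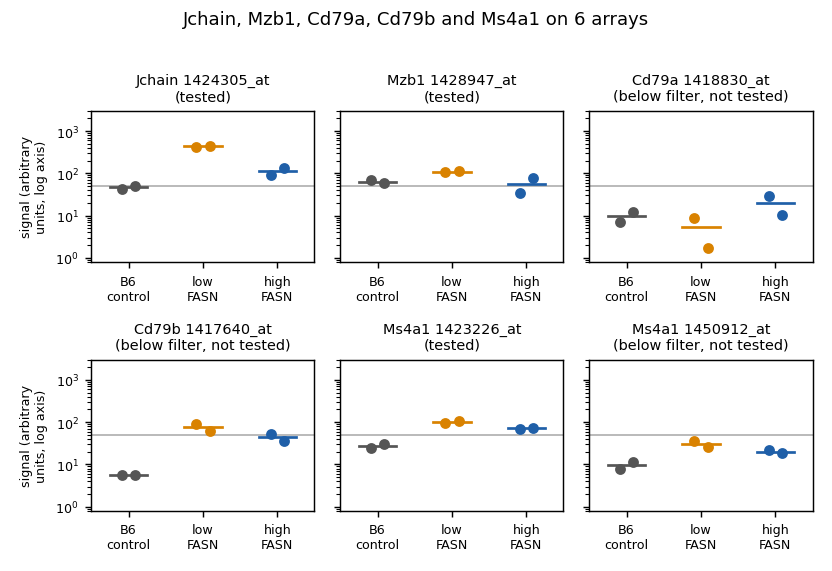
Signal of the probe sets of Jchain, Mzb1, Cd79a, Cd79b and Ms4a1 (log axis, arbitrary units) on each array, drawn as for Ighm. Jchain, Cd79b and both Ms4a1 probe sets run low line, high line, control from top to bottom, Mzb1 is raised in the FASN-low line alone, and Cd79a lies under the grey band of array medians throughout.

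Counted over the 7 tested probe sets, 4 were called higher (Ighm 1427351_s_at and 1427329_a_at, Jchain, Ms4a1 1423226_at) and 1 lower (Ighm 1425385_a_at) in the FASN-high line against control. A call is an adjusted p below 0.05 in limma's moderated test with Benjamini-Hochberg adjustment over all 22519 probe sets, of which 8.18% were called higher and 6.18% lower. The same 5 probe sets had the same calls in the FASN-low line, where 13.5% of all tested probe sets were called higher and 10.8% lower. Between the lines 3 were called lower in the FASN-high line (both bright Ighm probe sets and Jchain) and 0 higher, against 8.87% and 9.69% of all. In all, 14.4% of tested probe sets were called in the FASN-high line, 24.3% in the FASN-low line and 18.6% between the lines. By array values alone, 4 of the 7 lay above and 2 below both controls in the FASN-high line (32.2% and 23.9% of all tested), 5 above and 2 below in the FASN-low line (34.7% and 30.3%), and 7 lower in the FASN-high line than in the other (29.2%, with 30.0% higher). The median log2 difference of the 7 was 1.43 in the FASN-low line and 1.01 in the FASN-high line, beside 0.018 and 0.037 over all tested probe sets. These counts describe genes chosen for such values and are read no further. Both lines share the 2 control arrays. The lower call of 1425385_a_at in the FASN-low line was lost without FASN-low array 1 or without control array 2. Its log2 difference stayed between -0.88 and -0.76 with any 1 array left out. Leaving out single arrays also changed the number of higher calls in each line and of lower calls between the lines. In RNA of whole hearts, more cells of a type and more RNA per cell cannot be told apart.

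Promoter sequence was at hand for 2 of the 6 genes in the RefSeq table (GRCm38.p6). The 250 bases before the start site are shown for Jchain, whose groups were separate, and for Cd79a, the receptor chain that stayed dim. Capitals mark matches on either strand to an octamer (ATGCAAAT), an EBF core (CCCNNGGG), a PU box (GAGGAA) or an E box (CAGCTG), elements known from B cell promoters. The motifs do not overlap in these windows.
Jchain, chr5:88527898-88528147, minus strand: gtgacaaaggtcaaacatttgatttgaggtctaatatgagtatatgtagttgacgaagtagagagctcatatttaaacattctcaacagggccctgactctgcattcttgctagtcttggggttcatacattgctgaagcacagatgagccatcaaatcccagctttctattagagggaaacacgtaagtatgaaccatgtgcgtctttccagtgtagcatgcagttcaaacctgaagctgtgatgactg
Cd79a, chr7:24897247-24897496, plus strand: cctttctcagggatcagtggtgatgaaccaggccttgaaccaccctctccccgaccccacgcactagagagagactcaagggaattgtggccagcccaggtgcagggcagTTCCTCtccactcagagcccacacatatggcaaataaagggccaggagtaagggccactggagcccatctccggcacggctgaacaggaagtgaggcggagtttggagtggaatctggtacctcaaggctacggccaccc
The Jchain window held 0 matches. The Cd79a window held 1, a PU box on the minus strand 140 to 135 bases before the start. Over all 32851 promoter windows of this length, 1.6% held the octamer, 11.8% the EBF core, 23.3% the PU box and 13% the E box. A match is a string of letters and not a measured site. Only these exact strings were searched, so other forms of the elements would be missed. A window without a match may still hold such an element.

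Light chains pair with the heavy chain in every antibody, so other immunoglobulin genes were read beside Ighm. The probe sets were gathered by symbol after the values had been seen. Of 34 further immunoglobulin probe sets with 1 symbol, 2 were bright enough to test. Igkv8-30, a kappa variable segment, read 126 and 122 in the FASN-low line, 55.3 and 73.6 in the FASN-high line and 17.4 and 11.8 in controls. Against control its log2 difference was 2.20 in the FASN-low line and 1.39 in the FASN-high line, and both passed (limma, adjusted p = 0.000266 and 0.00568). Its control mean of 14.6 lay below the filter signal, which it reached through the transgenic arrays. As it was gathered after the values had been seen, these p-values are descriptive. The difference between the lines, -0.81, passed narrowly (adjusted p = 0.0485) and was lost without any 1 of the 6 arrays (adjusted p between 0.0518 and 0.204). The heavy chain of IgA, Igha, read 48.9 and 62.8, 62.0 and 69.4, and 49.4 and 71.8 in the same order, with overlapping groups and no call (adjusted p = 0.846 and 0.814 against control). The other 32 missed the filter. In the FASN-low line 12 of them lay above both controls and 2 below, and in the FASN-high line 7 above and 4 below, beside 18.3% and 18.8% above among all probe sets under the filter. Between the lines 10 were lower and 4 higher in the FASN-high line. For the counts below control and between the lines no share over all probe sets under the filter was computed. Those counts are read no further. Iglv1, a lambda variable segment singled out after its values were seen, read on 1430523_s_at 180.0 and 206 in the FASN-low line against 28.2 and 25.7 in the FASN-high line and 8.63 and 4.12 in controls.

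Of 13 probe sets annotated to several immunoglobulin symbols, 3 were bright enough, and all 3 list the same kappa light chain symbols. The brightest, 1427660_x_at, read 1978 and 1754 in the FASN-low line, 743 and 746 in the FASN-high line and 184 and 199.6 in controls. The groups were separate on all 3, in the order of the bright Ighm probe sets. Log2 differences from control ran from 3.04 to 3.63 in the FASN-low line and from 1.87 to 2.49 in the FASN-high line, and the FASN-high line was below the FASN-low line by -1.10 to -1.30. All 9 of these differences passed (limma, largest adjusted p = 0.00166). None of them was lost under any alternative that could be run, single arrays left out included. These probe sets may read the same transcripts and are not 3 independent measurements. They too were gathered after the values had been seen. 1427455_x_at averaged 45.9 in controls, below the filter signal, and reached the filter through the transgenic arrays.

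**Figure D3:**
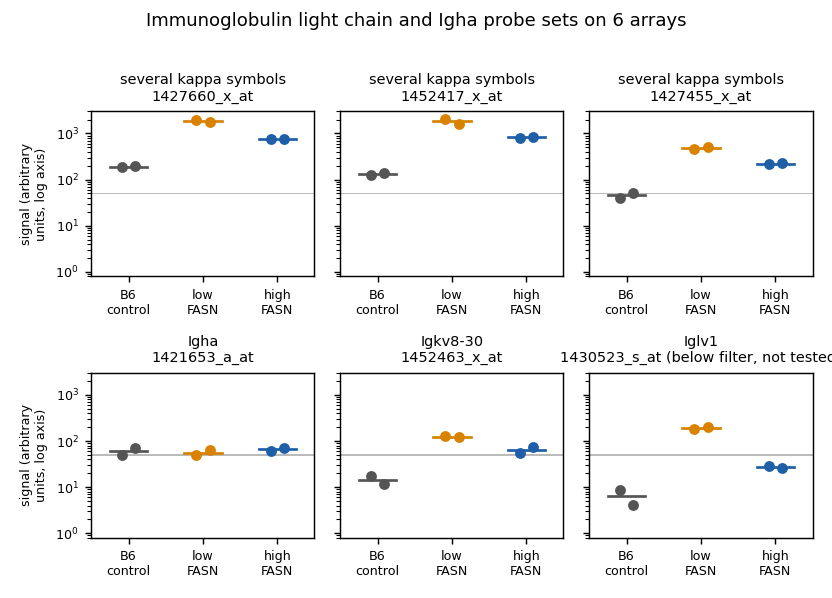
Signal of immunoglobulin probe sets outside the 6 genes (log axis, arbitrary units) on each array, with points for arrays, bars for group means and a grey band for the array medians. The 3 probe sets with several kappa symbols, Igkv8-30 and the dim Iglv1 run low line, high line, control from top to bottom, and Igha lies at the grey band in all groups. Iglv1 is the only dim probe set drawn, chosen after its values were seen.

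Other B cell genes were mostly dim. Of 22 listed, 20 had a probe set and 5 were bright enough. In the FASN-low line 2 of these 5 rose and 0 fell. Bank1, a B cell scaffold protein, read 165 and 160.2 against 62.9 and 83.0 in controls (log2 difference 1.01 ± 0.189, limma adjusted p = 0.00429), and Cd24a, a surface protein of B cells and many other cells, rose by 0.55 (adjusted p = 0.00526, on its brightest probe set, but 0.0528 without FASN-low array 1; 0.121 and 0.0935 on its other 2 tested probe sets). In the FASN-high line Bank1 read 134 and 116.0 (0.67, adjusted p = 0.0439), and this call was lost without any 1 of the 6 arrays (adjusted p between 0.0554 and 0.210). Cd22, an inhibitory receptor, read 57.6 and 62.0 in the FASN-low line, 44.1 and 46.5 in the FASN-high line and 55.7 and 49.7 in controls, with no call. Cd72 and Ly6d gave no call either, and between the lines 0 of the 5 were called (limma; 1 had an unadjusted p below 0.05). The median log2 difference of the 5 was 0.50 in the FASN-low line and 0.28 in the FASN-high line.

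The 15 dim genes of that list had array values between 1.41 and 67.5. In 9 of them both FASN-low arrays lay above both control arrays and in 0 below. The high line lay above in 8 and below in 2. Among all 22518 probe sets under the filter, 18.3% lay above in the FASN-low line and 18.8% in the FASN-high line. The share lying below was not computed. Fcmr, the Fc receptor of IgM, read 60.5 and 49.2 in the FASN-low line, 42.6 and 43.5 in the FASN-high line and 16.6 and 11.3 in controls. Pou2af1, a coactivator of immunoglobulin genes, read 65.9 and 55.3, 23.2 and 19.1, and 9.43 and 16.6. Pax5, the regulator of B cell identity, read 40.5 and 44.1, 7.63 and 2.57, and 20.3 and 23.9 on its brighter probe set, so the FASN-high line was lowest there. Its other probe set, 1454401_at, read 14.7 and 7.04, 10.6 and 40.2, and 6.39 and 7.16, with the FASN-high arrays above both controls. All values of both Pax5 probe sets were below the array medians.

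Plasma cell genes moved in both directions. Of 14 listed, 11 were bright enough, and in the FASN-low line 3 rose and 2 fell, in the FASN-high line 2 rose and 2 fell. Prdm1, which drives plasma cell formation and acts in other cells too, read 174 and 148 in the FASN-low line, 78.5 and 64.8 in the FASN-high line and 104 and 56.5 in controls. It rose by 0.92 ± 0.257 in the FASN-low line (limma adjusted p = 0.0287). Leaving out a FASN-low array or control array 2 ended that call, with adjusted p = 0.165, 0.0889 and 0.177. Txndc5, a disulphide isomerase of secretory cells, rose by 0.57 in the FASN-low line (adjusted p = 0.00124) and stood at 0.022 in the FASN-high line (adjusted p = 0.893). On its other probe set, 1423746_at, the differences were 0.90 and 0.33 (limma adjusted p = 0.000649 and 0.0981). There both FASN-high arrays lay above both controls, without a call. Tent5c rose in the FASN-high line by 0.89 (adjusted p = 0.0168), a call lost without either FASN-high array or either control array (adjusted p between 0.0509 and 0.0998), and stood at -0.29 in the FASN-low line. Cd93, a receptor of plasma cells that is abundant on endothelium, rose by 0.66 in the FASN-low line and 0.28 in the FASN-high line on its brightest probe set (adjusted p = 5.51e-05 and 0.00902). The FASN-high call was lost without control array 1 or 2. Of its other tested probe sets, 1419589_at was called higher in both lines, and 1441907_s_at and 1449521_at in neither. Xbp1, a secretory regulator that is expressed widely, fell by 0.26 and 0.23 on its brightest probe set (adjusted p = 0.00514 and 0.0153). Its FASN-high call was lost without either control array, and its FASN-low call without FASN-low array 1 or control array 2. Of its other tested probe sets, 1420011_s_at was called lower in both lines, 1420886_a_at in the FASN-high line alone and 1420012_at in neither. Ell2, an elongation factor used in immunoglobulin secretion, fell from 1520.5 and 1430 in controls to 702 and 624 in the FASN-low line and 632 and 650.1 in the FASN-high line, by 1.14 and 1.18 (adjusted p = 2.19e-05 and 2.41e-05).

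Irf4 and the survival receptor Tnfrsf17, both known from plasma cells, were dim. Tnfrsf17 read 19.2 and 8.11 in the FASN-low line, 26.0 and 35.3 in the FASN-high line and 28.7 and 3.32 in controls. Both lines overlapped the controls, and the FASN-high arrays lay above the FASN-low arrays. Sdc1, known as CD138, was bright and not called on any of its 3 tested probe sets. The list's median was 0.048 in the FASN-low line and 0.022 in the FASN-high line.

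**Figure D4:**
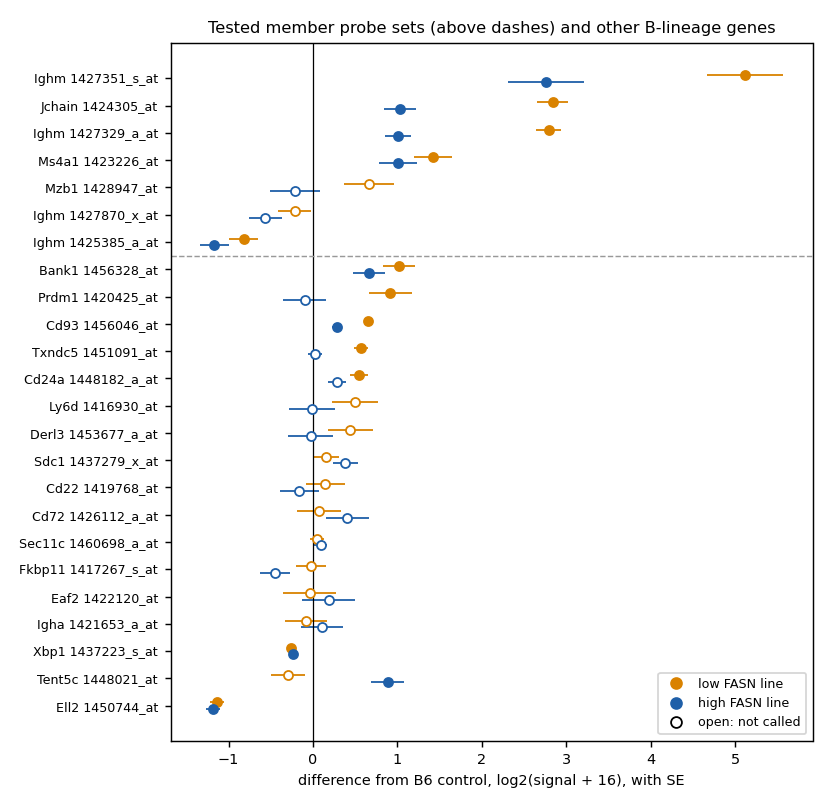
Difference from control in log2(signal + 16) with its SE for the 7 tested probe sets of the 6 genes (above the dashed line) and the brightest tested probe set of each other B-lineage gene (below it), in the FASN-low line and the FASN-high line; filled points are called and open ones are not. Ighm 1427351_s_at, Jchain and Ighm 1427329_a_at reach 2.79 or more in the FASN-low line, while the brightest probe sets of the other listed genes lie between -1.18 and 1.01; Igkv8-30, which is in none of the lists, is not drawn.

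Antibody secretion rests on the folding machinery of the endoplasmic reticulum. Of 15 genes of that list, 5 rose and 3 fell in the FASN-low line and 0 rose and 6 fell in the FASN-high line. Between the lines 7 were lower and 0 higher in the FASN-high line, with a median log2 difference of -0.27. The chaperone Hsp90b1 read 8110 and 8282 in the FASN-low line, 5731 and 5655 in the FASN-high line and 7035 and 6769 in controls. The stress gene Herpud1 fell in both lines, by 0.80 and 0.94 (limma adjusted p = 1.87e-05 and 9.0e-06). Of 16 tested B cell receptor signalling genes, 2 rose and 1 fell in the FASN-low line and 0 rose and 2 fell in the FASN-high line. Over all tested probe sets 13.5% were called higher and 10.8% lower in the FASN-low line. In the FASN-high line these shares were 8.18% and 6.18%. Each list count against control is to be set beside these shares. Ptprc, the CD45 phosphatase of all white blood cells, rose by 0.78 in the FASN-low line (adjusted p = 0.000578). Among 9 tested genes of homing and survival, 3 rose and 1 fell in the FASN-low line and 1 rose and 1 fell in the FASN-high line. The gene that fell was Vcam1 in both, by 0.52 and 0.55 (limma adjusted p = 0.00162 and 0.00216). Those that rose in the FASN-low line included Ltb, whose control mean of 27.2 lay below the filter signal. The B cell attractant Cxcl13 read 264 and 238 in the FASN-low line, 129 and 133 in the FASN-high line and 188 and 161 in controls. Its rise of 0.49 in the FASN-low line (adjusted p = 0.0401) was lost without any 1 of the FASN-low and control arrays (adjusted p between 0.0672 and 0.217). The plasma cell attractant Cxcl12 rose in both lines, by 0.33 and 0.45 (adjusted p = 0.00447 and 0.0015), the former at 0.0539 without FASN-low array 1. Of MHC class II genes, which B cells and other presenting cells express, 0 of 5 were called against control in either line (limma; 1 had an unadjusted p below 0.05 in each). Between the lines 2 of the 5, H2-Eb1 and Cd74, were higher in the FASN-high line, by 0.42 and 0.48 (adjusted p = 0.0351 and 0.0218). The former call was lost without any 1 array except FASN-high array 1 (up to 0.206), the latter without FASN-high array 2 or FASN-low array 2 (0.0656 and 0.159).

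Markers of other cells moved with the groups too, and their part in the B cell results was not tested. For T and NK cells 2 of 17 genes were bright enough, Cd8a (control mean 28.0, above the filter through the transgenic arrays) and Thy1. Both rose in the FASN-low line, by 1.10 and 0.58 (limma adjusted p = 0.0155 and 0.0259), and both calls were lost without any 1 of the FASN-low and control arrays (adjusted p between 0.0605 and 0.176). The summed signal of these 2 ran from 244 to 281 in the FASN-low line, 189 to 218 in the FASN-high line and 143 to 149 in controls. The T cell receptor genes Cd3d, Cd3e and Cd3g were dim, at 3.53 to 43.0. Of 14 macrophage genes 3 rose and 2 fell in the FASN-low line and 0 rose and 7 fell in the FASN-high line, with sums of 17418 to 17966, 14023 to 14138 and 16633 to 16750 in the order low line, high line, control. Of 5 tested neutrophil and red cell genes 0 rose and 2 fell in the FASN-low line and 2 rose and 2 fell in the FASN-high line, with sums of 233 to 266, 376 to 435 and 351 to 455. Adipocyte genes rose in both lines (6 of 7 in each, 0 fell), with sums of 33782 to 34386, 42960 to 46527 and 22139 to 22658. Of 6 tested airway and lung genes 4 rose in the FASN-high line and 1 in the FASN-low line, with sums of 234 to 311, 3084 to 3277 and 227 to 237. Scgb1a1, Scgb3a2 and Bpifa1 among them averaged 4.33, 13.3 and 20.7 in controls and reached the filter through the transgenic arrays. Cell division genes rose in 6 of 8 tested in the FASN-low line and 2 of 8 in the FASN-high line, with sums of 3858 to 3916, 3324 to 3457 and 2930 to 3088. In these lists Ucp1, Ltf, Alas2 and Ccnb2 also reached the filter through transgenic arrays (control means 8.24, 27.8, 38.8 and 38.2). S100a9 reached it through the control arrays. Counts and sums that hold such genes are descriptions. Of 8 heart muscle genes 1 fell in the FASN-low line and 5 rose in the FASN-high line. The FASN-high calls of Myh6, Tnnt2, Tnni3 and Actc1 were lost with quantile normalization (limma adjusted p between 0.0894 and 0.449) and with median centring (0.101 to 0.190).

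**Figure D5:**
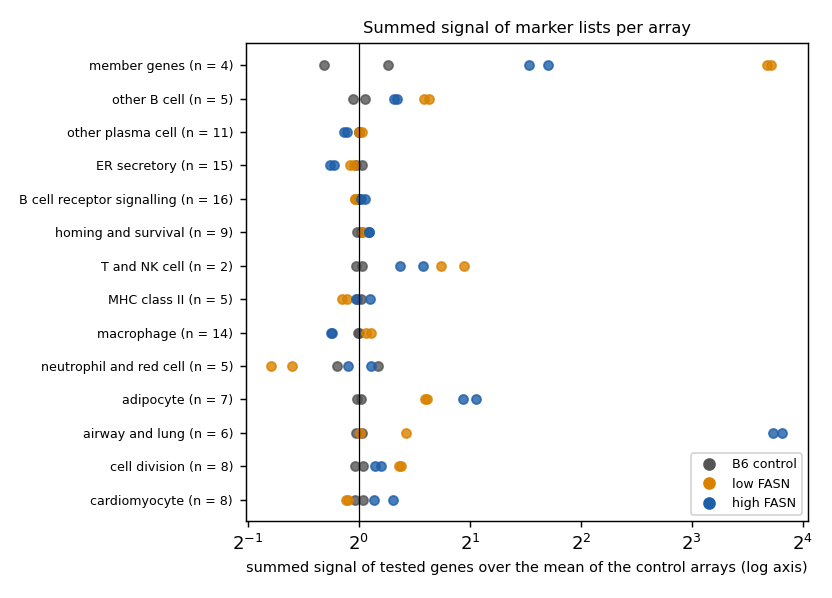
Summed signal of the tested genes of each list, divided by the mean of the 2 control arrays (log axis to base 2), with a point for each array. The 4 tested genes of the 6 stand at 12.8 and 13.1 in the FASN-low line and 2.90 and 3.26 in the FASN-high line, the airway and lung list has the reverse order at 1.34 and 1.01 against 13.3 and 14.1, and the adipocyte list is also higher in the FASN-high line. Ighm enters by 1427351_s_at alone, which gave 1711 and 1729 of the FASN-low sums of 2335 and 2389. Its probe sets 1425385_a_at and 1427870_x_at, below controls in both lines, are not in the sum. Scgb1a1, Scgb3a2 and Bpifa1 of the airway list reached the filter through the transgenic arrays.

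The 2 bright Ighm probe sets, Jchain, Cd79b and both Ms4a1 probe sets were highest in the FASN-low line, whereas Fasn, the adipocyte sum and the airway sum were highest in the FASN-high line. Outside the 6 genes, the nearest to Jchain over the 6 arrays were Egr1, Kcne1, Eln, Igkv8-30, Clec7a and Tfrc. Nearness was the root mean square difference of log2 values centred on the control mean (0.30 to 0.46 for these). Tested probe sets with 1 symbol were searched, and the 6 genes were left out. Among those left out, Ighm 1427329_a_at differed from control by 2.79 (FASN-low) and 1.01 (FASN-high), log2. Jchain differed by 2.84 and 1.03. Eln, the elastin gene, read 921 and 926 in the FASN-low line, 463 and 439 in the FASN-high line and 202 and 179.5 in controls. Tfrc, the transferrin receptor gene, read 4985 and 4888, 2958 and 2645, and 1084 and 1042. No gene searched came as near to Ighm 1427351_s_at. The nearest searched were Car3 on 1430584_s_at, Col4a4, Adipoq, Apoc1, Prkar2b and Tmem45b, at 1.23 to 1.73. Of these Car3 and Col4a4 alone were higher in the FASN-low than in the FASN-high line on every array. Probe sets with several symbols were not searched. The 3 tested kappa probe sets differed from control by 3.04 to 3.63 (FASN-low) and 1.87 to 2.49 (FASN-high), log2. Ighm 1427351_s_at differed by 5.12 and 2.76, and their distance from it was not computed. On 1430584_s_at Car3 read 391 and 486, 356 and 308, and 32.2 and 5.38, with the control arrays far apart. The brighter Car3 probe set, 1449434_at, had the lines in the other order, at 9953 and 10125 in the FASN-low line, 15286 and 14582 in the FASN-high line and 1176 and 1141 in controls. All these nearest profiles were chosen over the same 6 arrays, so their differences describe the choice and are no test.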

How the data were processed

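RNA of mouse hearts was measured on 6 Affymetrix expression arrays. The authors deposited linear intensity values, 1 for each probe set on an array; GCOS is named by the submitters' processing notes. Version, summary method and scaling target: not given in the sources used here. Trimmed column means were equal at 300.002, so the deposited scaling was kept. The number of arrays limits the precision. Of 45101 probe sets 64 controls were set aside. Of the rest 34945 had 1 gene symbol in the platform annotation, 932 had several and 9160 were not listed. No symbol was altered by Entrez identifier (RefSeq, GRCm38.p6; 0 updates).

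Values were fitted as log2(signal + 16) with limma 3.58.1 in R 4.3.3, with 3 group means, all 6 arrays and a variance trend (residual degrees of freedom 3, prior 6.43), on the 22519 probe sets at or above the median mean log2 value. The log2 scale for this filter was settled after the data were seen; the mean of linear signals was added as an alternative. Calls were two-sided at 0.05 after Benjamini-Hochberg adjustment. The fit was tested on simulated data. The 6 genes and the other lists were chosen with earlier results of these data known. Named genes were drawn from the 6 genes, the B-lineage lists, the 6 nearest profiles to Ighm and to Jchain, and Fasn. Of each other list, up to 3 genes with the smallest p in each comparison could be named. Not every gene so drawn is named in the text, and no rule fixed which are. Cd3d, Cd3e and Cd3g were named after their values were seen. Lists use the brightest probe set per gene. Alternatives were other scalings, pseudocounts, filters, variance models, only the arrays compared, a replicate block and each array left out. Figures used matplotlib 3.10.9 under Python 3.11.15.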

Additional observations from a re-analysis of the deposited data

Results flagged for a closer look

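Several genes outside the 6 differed between the high and the low line by the test of that difference itself (limma, adjusted p below 0.05). Of the plasma cell list these were Prdm1 at -1.01 (high minus low, log2), Txndc5 at -0.54 and -0.57 on its 2 probe sets, and Tent5c at 1.18. Cd93 was called too, at -0.37 and -0.83 on 2 probe sets. It was not called on 1441907_s_at at -0.23 or 1449521_at at 0.43 (limma adjusted p = 0.625 and 0.186). The next genes were picked for their profile over the same 6 arrays, which fixed the direction, so their values are a description and no test. Of the genes nearest to Jchain they were Egr1 at -1.20, Kcne1 at -1.47, Eln at -1.01, Igkv8-30 at -0.81, Clec7a at -0.79 and Tfrc at -0.82. Of those nearest to Ighm they were Adipoq at 0.98, Prkar2b at 0.67 and Tmem45b at 1.56. The call of Prdm1 was lost without low-line array 1 or 2 or high-line array 2 (adjusted p = 0.151, 0.0895 and 0.0759), that of Txndc5 1423746_at without low-line array 1 or 2 (0.0900 and 0.0530), that of Prkar2b without any 1 of the 4 transgenic arrays (0.0727 to 0.194), and that of Igkv8-30 without any 1 of the 6 arrays (0.0518 to 0.204).

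The dim Ighm probe set 1451949_at moved in opposite directions against control, by -0.16 on the log2 scale in the low line but 0.85 in the high. This difference was not tested, and all its values were below the array medians.

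A signal above control appeared in data outside the 6 genes, on the 3 probe sets with several kappa light chain symbols. Their log2 differences from control, first high and then low line, were 1.87 and 3.18 for 1427660_x_at, 2.49 and 3.63 for 1452417_x_at, and 1.95 and 3.04 for 1427455_x_at.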

How the results depend on the processing

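Without a filter on dim probe sets, the other B-lineage genes called higher numbered 1 in place of 3 in the high line and 8 in place of 5 in the low line. With a filter at the 75th percentile, fewer probe sets were tested: 1 of the 6 genes' probe sets was called higher and 0 lower in each line against control, 1 was lower between the lines, and the other B-lineage genes called higher numbered 1, 3 and 0 (high line, low line, high over low). Without the variance trend 1233, 3576 and 1449 probe sets were called in place of 3234, 5475 and 4179; the other B-lineage genes called lower numbered 1 in each comparison, and those called higher in the high line 1; the cause was not tested. With the filter on the mean of linear signals, added after the data were seen, 3246, 5494 and 4165 probe sets were called, and Igkv8-30 between the lines was lost (adjusted p = 0.0544). Leaving out 1 array at a time gave 1398 to 3493, 2897 to 6476 and 1553 to 4158 called probe sets. Other B-lineage genes called higher then numbered 0 to 2 in the high line (0 without either control array, 1 without either high-line array) and 3 to 5 in the low line, and those called lower 1 to 2 in each; 1425385_a_at was called lower in the low line 0 to 1 times. Where an array was left out, the lone array was taken to vary like the other groups.

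Same-numbered arrays deviated from their group means with correlations of 0.0396, 0.0273 and 0.0004, so the numbers were not taken as pairs. A replicate block gave 3392, 5647 and 4325 called probe sets and left the counts of calls for the 6 genes as they were, but the calls of Bank1 in the high line (adjusted p = 0.0533) and Igkv8-30 between the lines (0.0617) were lost. No log2 difference of the 6 genes' tested probe sets changed sign under any alternative, except Mzb1 in the high line. Dim signals, such as those of Cd79a and 7 Ighm probe sets, limit what can be read, and 2 arrays a group leave 3 residual degrees of freedom.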
